A study of Mus musculus with 8 samples.

Results

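The microglia described here are 793 of the 11518 hippocampal nuclei that passed quality limits in 4 single-nucleus multiome libraries, in which nuclear RNA and chromatin accessibility (ATAC, the count of transposase cuts in a region) were read from the same nucleus. A nucleus was kept when it had 500 to 7000 detected genes, less than 2% mitochondrial unique molecular identifiers (UMIs, one per captured RNA molecule) and 1000 to 70000 ATAC counts. Members were chosen by their RNA counts. A kept nucleus was called microglial when at least 3 of 10 genes (Csf1r, C1qa, C1qb, C1qc, Inpp5d, Ikzf1, Siglech, Ly86, Dock8 and Selplg) had a UMI. Fewer than 2 of the border macrophage genes Mrc1, F13a1, Pf4 and Ms4a7 could be detected, the neuronal genes Slc17a7 and Gad2 together could have at most 1 UMI, and so could the oligodendrocyte gene Mog and the astrocyte gene Aqp4. The libraries came from wild-type male C57BL/6J pups at postnatal day 21 (P21). Their mothers ate a folic acid (FA) diet of 2 mg/kg (MF, the control diet) or 20 mg/kg (HF, the excess diet), begun before mating and kept up through gestation and nursing. Each diet had 2 libraries (MF1 and MF2, HF1 and HF2), and whether a library held 1 pup or several was not stated. The p-values below therefore measure the spread between libraries, which may be partly technical.

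Microglia are the resident macrophages of the brain. They arise from yolk sac progenitors, depend on signalling through the receptor Csf1r to survive, and clear debris and synapses that the C1q complement proteins have tagged. The transcription factors PU.1 (the product of Spi1), Irf8, Runx1 and Sall1 and the cytokine TGF-beta are known to hold their identity.

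Members made up 9.45% of kept nuclei in MF1 (274 of 2899, exact 95% binomial interval 8.41 to 10.6%). The share was 5.91% in MF2 (133 of 2249, 4.97 to 6.97%), 5.96% in HF1 (207 of 3473, 5.20 to 6.80%) and 6.18% in HF2 (179 of 2897, 5.33 to 7.12%). MF1 stood above the other libraries, which lay close together, and the intervals cover counting error only. The mean share was 7.68 ± 2.50% in MF and 6.07 ± 0.155% in HF (SD, n = 2), a difference of -1.61 percentage points (exact two-sided permutation test, p = 1, where 0.333 is the smallest p that 2 libraries against 2 allow). Without MF1 the difference was 0.156 percentage points, and without MF2 it was -3.38.

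Microglial nuclei were small in RNA. Their median was 1852 UMIs and 1236 genes, against 7229 UMIs and 2926 genes in the other 10725 kept nuclei, and their median ATAC count was 12148 against 18399. The median UMIs of microglia were 2100 and 1720 in MF1 and MF2, and 1724 and 1613 in HF1 and HF2, so MF1 also had the deepest microglia in RNA. Their median ATAC counts were 11535 and 16317 in MF1 and MF2, and 11969 and 12797 in HF1 and HF2, with MF1 lowest. The summed microglia held between 365444 and 703637 UMIs and between 2289691 and 2984155 ATAC counts a library. Mitochondrial UMIs took a median of 0.728 to 0.962% in microglia and 0.250 to 0.374% in other nuclei. Among members, 1 barcode was found in 2 libraries, as were 76 barcodes among all kept nuclei.

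The marker genes formed a steep edge. Of the 793 members, 651 (82.1%) had 8 or more of the 10 rule markers and 239 had all 10, while 8855 of the other nuclei (82.6%) had none. Only 17 members had exactly 3 markers, the least the rule takes. Those 17 had a median of 4785 UMIs, a median of 1.95% of their UMIs in 14 excitatory neuron genes and 0.0355% in 14 microglia markers that the rule did not use, and they resembled in depth the 66 nuclei just outside it, which had 2 markers, met the other limits and had a median of 5842 UMIs. The rule turned away 252 nuclei that had 3 or more markers: 186 had too many neuronal UMIs, 77 too many oligodendrocyte or astrocyte UMIs, 29 had 2 or more border macrophage genes, and 38 met more than one of these. Their median of 12223.5 UMIs was far above that of members, and no doublet caller was run. Unless stated otherwise, these 252 nuclei are among the other nuclei in the comparisons below.

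A tail of deep nuclei remained among the members. The 68 members with more than 5000 UMIs (16 and 13 in MF1 and MF2, 19 and 20 in HF1 and HF2) were 8.58% of members but carried 21.6%, 38.3%, 32.3% and 45.5% of the microglial UMIs of the same libraries. Their median share of excitatory neuron UMIs was 1.41% against 0.114% in the other 725 members, and that of the microglia markers outside the rule was 0.310% against 1.77%. Chromatin differed in the same way: the regions over the start sites of the rule markers held 242 ATAC CPM (counts scaled to a common total for each group of nuclei and library) in the deep members and 656 in the others (means over libraries), and those of the excitatory neuron genes held 172 and 29.4. Sums over microglia therefore held neuronal UMIs, least in MF1 and most in HF2, and several results are also given without these nuclei. The alternative without them was chosen after seeing the data.

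**Figure D1:**
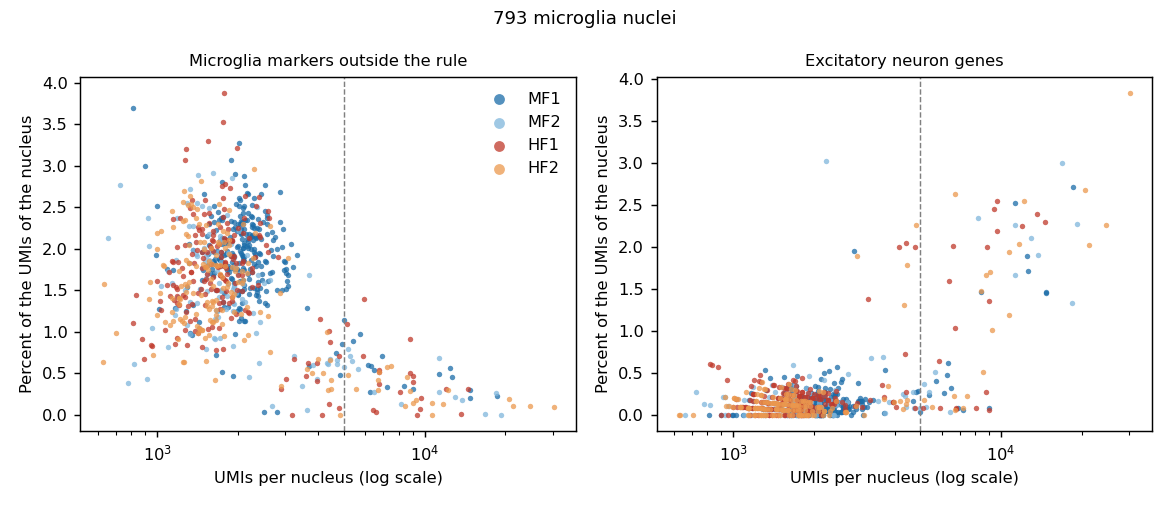
Each point is 1 of the 793 microglia nuclei, coloured by library, with its UMIs on a log axis and, on the vertical axis, the percent of its UMIs in 14 microglia markers outside the rule (left) or in 14 excitatory neuron genes (right). Right of the dashed line at 5000 UMIs the 68 deep nuclei had a median marker percent of 0.310 and a median neuronal percent of 1.41, against 1.77 and 0.114 left of it.

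The RNA levels below describe how the nuclei were chosen and carry no test, because RNA of the same nuclei set the membership. Levels are CPM of the UMIs summed over the microglia or the other kept nuclei of a library, and a fold is the mean over the 4 libraries of the ratio on a log2 scale after adding 0.5 CPM to both. The rule markers were 114- to 170-fold higher in microglia. Csf1r, the receptor for the growth factors CSF1 and IL-34, stood at 2035 and 1193 CPM in MF1 and MF2 and at 1257 and 1072 CPM in HF1 and HF2, against 9.13 ± 1.29 CPM (SD, n = 4 libraries) in other nuclei. C1qa, a chain of the complement starter C1q, stood at 3141, 1724, 2392 and 1376 CPM in the same order, against 16.8 ± 3.98 CPM. Siglech, a surface receptor of the Siglec family, stood at 1001, 627, 742 and 547 CPM, against 4.41 ± 0.758 CPM, and Inpp5d, the lipid phosphatase SHIP1, at 1147, 941, 815 and 885 CPM, against 5.07 ± 0.816 CPM. MF1 was the highest library for each of these 4 genes, and every microglial value was far above the other nuclei.

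Genes that the rule did not use gave the same picture. Of 3318 genes with at least 50 CPM in the microglia of every library, 464 (14%) were at least 4-fold higher than in other nuclei and 220 (6.63%) at least 16-fold. All 14 microglia markers outside the rule were at least 4-fold higher, with a median log2 ratio of 6.58. P2ry12, the ADP receptor that steers microglial processes, stood at 1973, 1231, 1688 and 1095 CPM in MF1, MF2, HF1 and HF2, against 38.96 ± 3.48 CPM in other nuclei. Tmem119, a surface protein that separates microglia from blood macrophages, stood at 543, 298, 298 and 207 CPM, against 2.34 ± 0.843 CPM. In both genes the lowest microglia library was far above the other nuclei, and MF1 was highest.

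**Figure D2:**
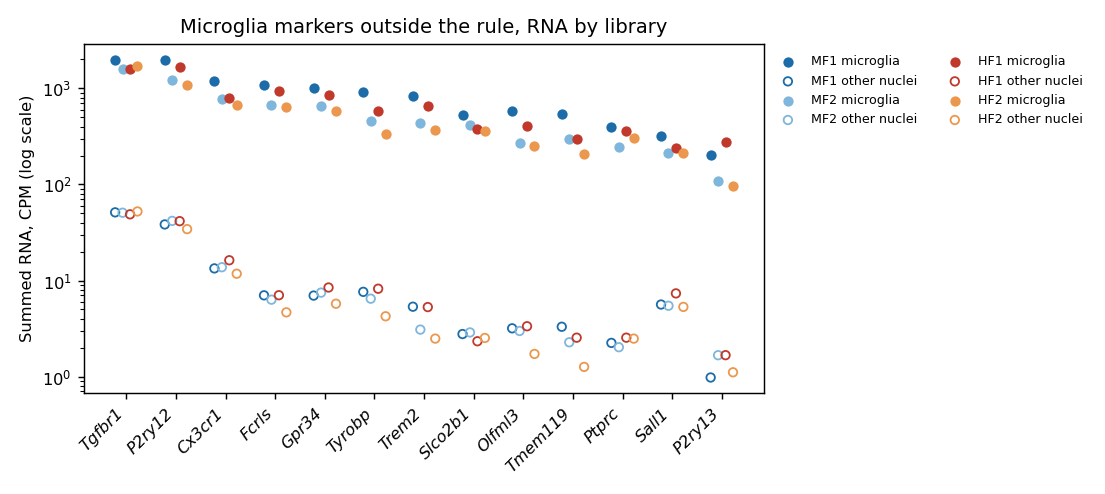
Summed RNA (CPM, log axis) of 13 of the 14 microglia markers outside the rule, with filled points for microglia and open points for other nuclei of the same library. In all 13 genes shown the 4 filled points lie above the 4 open ones, for P2ry12 between 1095 and 1973 CPM against a mean of 38.96.

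At equal depth the markers outside the rule still set microglia apart from nuclei without any rule marker. With every nucleus thinned to 1000 UMIs, at least 3 of the 14 markers outside the rule were seen in 97.4% and 90.4% of microglia in MF1 and MF2 and in 93.0% and 90.1% in HF1 and HF2 (97.0 to 99.3% unthinned). Among 600 other nuclei drawn per library from those with no rule marker, the thinned shares were 0%, 0%, 0.167% and 0% (3 to 4.67% unthinned), where a count of 0 allows up to 0.508%, 0.505% and 0.502% in MF1, MF2 and HF2. Leaving out every nucleus with a rule marker favoured a low share of other microglia markers, so this comparison is a description. The thinning left out 4 to 8 microglia and 1 to 10 other nuclei a library for having fewer UMIs. Apoe, a lipid carrier that astrocytes make in bulk, behaved otherwise: its thinned share was 43.3%, 36.8%, 48.0% and 27.9% in microglia and 21.9%, 29.1%, 34.7% and 29.6% in the other nuclei, so in HF2 the microglial share was below that of nuclei without rule markers.

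The 25 genes outside the rule with the highest ratio were Gm2629, Gm10790, Arhgap45, Slco2b1, Runx1, Trem2, Fli1, Fcrls, Il10ra, Nckap1l, Ctss, Tmem119, Csf3r, Ptprc, Cd33, Rbm47, Olfml3, Adap2, Rhoh, Cd84, Laptm5, Cd86, Mir142hg, Rasgrp3 and Itgam, from 155-fold to 106-fold. Runx1 and Fli1 are transcription factors of blood cells. Trem2 is a lipid receptor of microglia that has risk variants in Alzheimer's disease, and Ctss is a lysosomal protease. Ptprc (CD45) and Itgam (CD11b) are surface proteins of blood-derived cells that are widely used to sort microglia. The most abundant RNA of microglia was Malat1, a nuclear RNA, at 25120 ± 4129 CPM (SD, n = 4), lower than the 42632 ± 7160 CPM of other nuclei, followed by Cst3 (cystatin C, an inhibitor of cathepsins) at 10224 ± 4683 CPM against 788 ± 289 CPM.

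Counts by list below cover the members that reached 50 CPM in the microglia of every library, a limit that admits genes by their microglial level, so a count of higher genes describes those members and not the list. For transcription factors, of 30 on the list, 21 reached 50 CPM in every library and 16 of these were at least 4-fold higher in microglia. Spi1, which encodes PU.1, stood at 247, 142, 131 and 116 CPM in MF1, MF2, HF1 and HF2, 75.1-fold above other nuclei. Irf8, its partner in microglia, stood at 247, 186, 196 and 157 CPM (74.3-fold), and Sall1, a zinc finger factor that microglia have and other brain macrophages lack, at 317, 211, 238 and 212 CPM (37.8-fold). The broadly used factors Mef2a and Mef2c were high in other nuclei as well and were 7.36- and 4.74-fold higher, and Zeb2 was 1.49-fold higher. MF1 was the highest of the 4 libraries for Spi1, Irf8 and Sall1.

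Receptors and signalling genes varied widely. In the TGF-beta list, 13 of 21 genes reached 50 CPM and 5 of them were at least 4-fold higher. The ligand Tgfb1 was 73.0-fold higher, the receptors Tgfbr2 and Tgfbr1 were 49.7- and 33.3-fold higher, and Nrros, which anchors latent TGF-beta on microglia, was 22.1-fold higher. The shared mediators Smad2, Smad3 and Smad4 were 2.65-, 2.19- and 1.66-fold higher. In the list around Csf1r signalling, 14 of 20 genes reached 50 CPM and 9 of them were at least 4-fold higher, among them the kinase Lyn (41.7-fold) and the adaptor Blnk (38.5-fold). In the purinergic and chemokine receptor list 7 of 20 genes reached 50 CPM, and these 7 were at least 4-fold higher. They included P2ry6, the UDP receptor linked to engulfment (88.1-fold), and Ltc4s, which is not a receptor but an enzyme of leukotriene synthesis (103-fold).

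Among genes of recognition and engulfment, 12 of 30 complement and innate receptor genes reached 50 CPM, and these 12 were at least 4-fold higher. They included the Fc receptor chain Fcer1g (80.5-fold) and the antibody receptor Fcgr3 (86.8-fold). Of 30 genes of phagocytosis and the lysosome, 26 reached 50 CPM and 21 of these were at least 4-fold higher. The uptake receptor Mertk stood at 1245, 1133, 1027 and 1099 CPM in MF1, MF2, HF1 and HF2 (13.9-fold above other nuclei), and the lysosomal proteases Ctsd and Lgmn were 38.7- and 28.3-fold higher. Elmo1, which links uptake receptors to the actin skeleton, was 14.9-fold higher.

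Genes of activated microglia were low or shared with other cells. Of 21 on the list, 6 reached 50 CPM and only Cd9 was at least 4-fold higher (5.48-fold), while Apoe was 1.62-fold higher. Of 39 genes of folate and one-carbon metabolism, 6 reached 50 CPM, with a median log2 ratio of 0.21, and 1 of them was at least 4-fold higher. Among the 6, Mthfs, which returns formylated folate to the active pool, was 4.10-fold higher, and methionine synthase (Mtr) was 3.73-fold higher at 124, 98.5, 95.2 and 106 CPM. The whole list summed to 1164 CPM in microglia against 1316 CPM in other nuclei (means over libraries). The DNA methyltransferase Dnmt3a and the oxygenase Tet3 were 1.53- and 2.13-fold higher.

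Markers of other white blood cells were low, whereas red cell genes were not (given with the diet below). In the border macrophage list, 8 of 14 genes had no UMI in any microglial nucleus, Cd163 and Lyve1 among them as well as Ms4a7, which the rule limits, and the summed list lay between 73.9 and 112 CPM (16.7 to 19.0 CPM in other nuclei). Mrc1, limited by the rule too, stood at 45.5, 24.6, 27.8 and 33.4 CPM. The summed monocyte list lay between 52.6 and 136 CPM with 5 of 10 genes at 0, the neutrophil list between 0 and 5.47 CPM with 5 of 8 at 0, and the lymphocyte list between 11.8 and 29.7 CPM with 9 of 12 at 0. The endothelial list lay between 17.7 and 51.6 CPM. Excitatory neuron genes were at 3897, 7851, 6297 and 9797 CPM in MF1, MF2, HF1 and HF2, and at 1423, 1937, 2510 and 2156 CPM without the deep members, against 18458 to 20597 CPM in other nuclei.

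A few members had UMIs of many genes of another list. At least 6 of 23 interferon response genes were detected in 10 nuclei, of which 8 were in MF1, 1 each in MF2 and HF1, and 0 in HF2. After thinning to 1000 UMIs, at least 3 of these genes were seen in 14, 2, 3 and 0 microglia of MF1, MF2, HF1 and HF2 and in 0, 0, 3 and 1 of the drawn other nuclei. The 8 nuclei of MF1 had 1296 to 3330 UMIs and held 107 of its 462 interferon UMIs in microglia. At least 10 of 25 cell cycle genes were detected in 5 nuclei, 1 in MF1, 2 in MF2 and 2 in HF2, and 3 of these 5 nuclei (6138, 12971 and 30294 UMIs) were among those over 5000 UMIs. After thinning, at least 3 of the cell cycle genes were seen in 1, 1, 0 and 2 of the 270, 125, 200 and 172 microglia with enough UMIs and in 5, 2, 5 and 9 of 590, 594, 599 and 598 other nuclei, so these few nuclei do not set microglia apart at equal depth.

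Chromatin accessibility was the independent readout, since the rule used RNA and only a total of ATAC counts. Regions were the merged peaks found in all 4 libraries, and each was tested with edgeR's quasi-likelihood test on counts summed per library, with library as a term. Microglia were higher in 20849 of 154763 regions (13.5%) and lower in 32254 (20.8%), at an adjusted p under 0.05 and at least 2-fold. Folds, log2 differences and the 2-fold limit include edgeR's scaling factors, which ATAC CPM do not. A fold in favour of microglia therefore exceeds the ratio of the ATAC CPM, and a smaller ratio can pass the limit. The start-site region of Tgfbr1, for example, had means of 136 against 39.4 ATAC CPM at a fitted 5.78-fold. The median log2 difference of all regions was -1.21 (-2.48 without members over 5000 UMIs), so a typical tested region was lower in microglia. The higher ones stood out from it. Peaks were called per library and not per cell class, and microglia were 6.88% of kept nuclei. The tested regions therefore lean to chromatin open in other cells, and the median does not measure how open microglial chromatin is. Higher regions were 39.3% of the calls, 21.2% with the relative log expression scaling and 16.5% without members over 5000 UMIs, but 51.7 to 57.2% when any 1 library was left out, which left 15040 to 18924 lower regions. Of the 20849 higher regions, 71.0% were still called under that scaling, 78.0% without the deep members, and none turned lower in any alternative. At 4-fold, 9182 regions were higher.

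On the main scaling, higher regions lay closer to genes than other regions, the strongest among them less so. Positions were not read under the other scaling, where fewer start-site regions were higher, as given below. A transcription start site was inside 39.1% of the higher regions, 14.1% of those at least 4-fold higher, 6.26% of the lower ones and 10.0% of all tested. The median distance to the nearest start site was 3272 bp for the higher regions, 11302 bp for the 4-fold ones, 30354 bp for the lower ones and 22796 bp for all. Most of the 4-fold regions, 67.6%, were over 5000 bp from any start site, against 45.4% of all higher regions.

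The 10 regions with the smallest adjusted p were 138- to 168-fold higher (log2 7.11 to 7.39, adjusted p too small to tell from 0, edgeR; among 244 such regions the larger fold came first). The first was chr2:129511906-129512871 (mm10), in an intron of F830045P16Rik and 24213 bp from its start site, with 162, 86, 135 and 111 ATAC counts in microglia, in the order MF1, MF2, HF1, HF2. The many more other nuclei had 15, 30, 43 and 21 counts there, and in ATAC CPM the means were 47.4 ± 7.95 against 0.469 ± 0.186 (SD, n = 4). A start site lay in 2 of the 10: chr6:122952096-122953047 that of Clec4a3, a lectin receptor of myeloid cells (log2 7.27), and chr11:82101196-82102209 that of Ccl12, a chemokine (log2 7.12). The region chr8:89404030-89404992 lay in no gene, and the nearest start site was that of Sall1, 360349 bp away, with 232, 156, 190 and 166 counts in microglia against 39, 47, 54 and 58 (log2 7.12, SE 0.148). The others were chr11:71251072-71252003 (20805 bp from Nlrp1b), chr6:95456219-95457153 (122693 bp from AY512915), chr10:37189789-37190715 (49163 bp from 5930403N24Rik), chr15:25321538-25322438 (intron of 4930445E18Rik), chr13:113381507-113382430 (39421 bp from BC067074) and chr2:160151812-160152763 (135635 bp from 9130015L21Rik). All 10 kept their call in each alternative run.

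The first 5 of these 10 regions whose midpoint window of 300 bases held any of 8 motifs and overlapped no untranslated region are shown as examples of chromatin far more open in microglia than in other nuclei. The second of the 10, at Clec4a3, was passed over, and holding a motif was part of the choice. Letters are from the RefSeq copy of GRCm38 (mm10), plus strand, 5′ to 3′, with motif matches in capitals on either strand. The motifs were PU.1 (GAGGAAG), ETS-IRF (GAANNGAAA), RUNX (TGTGGTT), MEF2 (CTATTTA), AP-1 (TGANTCA), CEBP (TTGCNNAA), NFI (TTGGCA) and an E-box (CAGATG).
chr2:129512239-129512538: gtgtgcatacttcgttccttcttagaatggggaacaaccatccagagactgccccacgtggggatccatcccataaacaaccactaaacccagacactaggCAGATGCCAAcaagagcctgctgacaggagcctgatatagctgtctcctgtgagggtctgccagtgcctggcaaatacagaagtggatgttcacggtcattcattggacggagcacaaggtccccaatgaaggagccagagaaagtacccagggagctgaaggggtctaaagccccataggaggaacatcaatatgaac
chr11:71251388-71251687: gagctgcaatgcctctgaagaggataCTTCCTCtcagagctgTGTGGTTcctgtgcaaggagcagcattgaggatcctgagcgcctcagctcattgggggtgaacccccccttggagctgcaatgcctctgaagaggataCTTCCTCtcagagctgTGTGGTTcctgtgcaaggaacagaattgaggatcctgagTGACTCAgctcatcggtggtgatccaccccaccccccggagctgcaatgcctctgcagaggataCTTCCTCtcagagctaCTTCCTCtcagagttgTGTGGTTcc
chr6:95456536-95456835: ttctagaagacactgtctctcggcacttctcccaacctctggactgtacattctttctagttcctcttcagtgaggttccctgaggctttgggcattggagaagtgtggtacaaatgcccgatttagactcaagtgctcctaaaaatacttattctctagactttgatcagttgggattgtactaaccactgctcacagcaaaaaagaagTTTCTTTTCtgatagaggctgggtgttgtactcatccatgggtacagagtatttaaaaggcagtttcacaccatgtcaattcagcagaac
chr10:37190102-37190401: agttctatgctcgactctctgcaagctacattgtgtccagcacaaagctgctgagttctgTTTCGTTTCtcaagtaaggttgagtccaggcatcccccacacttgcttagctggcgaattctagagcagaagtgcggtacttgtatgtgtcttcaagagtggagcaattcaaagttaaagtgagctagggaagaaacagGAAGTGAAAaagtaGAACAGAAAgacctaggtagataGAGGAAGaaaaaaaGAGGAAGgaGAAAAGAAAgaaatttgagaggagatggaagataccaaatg
chr15:25321838-25322137: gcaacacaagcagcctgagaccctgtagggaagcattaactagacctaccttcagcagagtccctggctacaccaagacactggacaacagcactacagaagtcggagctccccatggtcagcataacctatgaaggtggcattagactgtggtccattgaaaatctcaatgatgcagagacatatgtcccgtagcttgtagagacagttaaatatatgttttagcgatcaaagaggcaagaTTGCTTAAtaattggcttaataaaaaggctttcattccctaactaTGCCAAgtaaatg

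The second window, near Nlrp1b, held 4 PU.1, 3 RUNX and 1 AP-1 match in a stretch that repeats itself, starting at bases 27, 43, 141, 157, 196, 260, 276 and 292. The fourth, between genes on chromosome 10, held 2 PU.1 and 4 ETS-IRF matches. The third held 1 ETS-IRF match at base 211. The first held an E-box at base 102 that overlaps an NFI match at base 106, and the fifth a CEBP match at base 243 and an NFI match at base 288. A match is a spelling in the sequence and not a measured binding site.

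Across all regions the PU.1 motif was most frequent where microglia were most open. PU.1 letters were in 28.7% of the windows at least 4-fold higher in microglia, 20.0% of all higher ones, 11.5% of all tested and 9.90% of the lower ones. ETS-IRF letters were in 14.1% of the 4-fold windows, 9.58% of the higher, 9.73% of all and 9.74% of the lower ones, and RUNX letters in 8.76%, 6.02%, 6.29% and 5.92%. The E-box and NFI were less frequent in both sets of higher windows than in all windows, and most frequent in the lower ones. The E-box was in 25.3% of the 4-fold windows, 19.0% of the higher, 35.7% of all and 41.9% of the lower ones, and NFI letters were in 19.6%, 15.3%, 25.1% and 28.3%. AP-1, CEBP and MEF2 letters were also less frequent in both sets of higher windows: in 12.2%, 13.9% and 3.14% of the 4-fold windows, 8.47%, 10.7% and 2.29% of the higher and 14.02%, 14.5% and 3.94% of all. The windows also differed in base composition, with a median of 55.3% G and C in the higher ones, 51.3% in the 4-fold ones and 48.0% in all. Within windows of 45 to 50% G and C, PU.1 was in 23.7% of the higher and 11.9% of all, ETS-IRF in 16.3% and 10.3%, RUNX in 9.43% and 7.08%, and the E-box in 26.9% and 39.2%. Over 55% G and C, where 10689 of the 20849 higher windows lay, the shares were close: PU.1 was in 16.8% of the higher and 14.5% of all, ETS-IRF in 4.67% and 4.23%, and RUNX in 3.35% and 3.42%, while the E-box was in 12.1% and 21.1%. In these windows CEBP was in 6.57% and 6.64%, MEF2 in 0.805% and 0.951%, and AP-1 in 4.73% and 6.80%. These shares are descriptions of letters and no test was run on them.

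**Figure D3:**
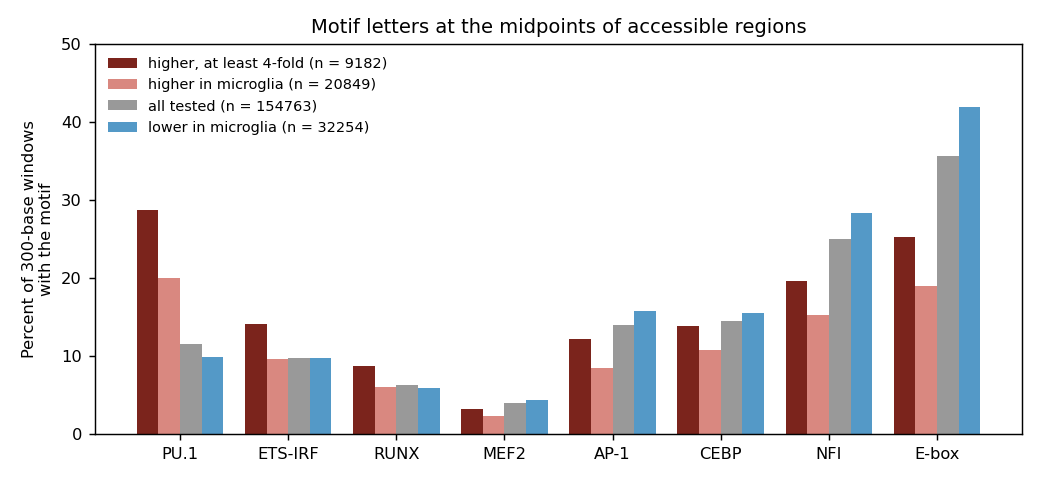
Bars give the percent of 300-base windows, taken at the midpoint of each region, that hold each motif on either strand, for regions at least 4-fold higher in microglia, all higher, all tested and lower. PU.1 falls from 28.7% in the first to 9.90% in the last, while the E-box goes from 25.3% to 41.9%.

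Regions over start sites were read gene by gene. For each of 15889 genes with a tested region over a start site, the region with the highest mean ATAC CPM in microglia was read. Where a gene had several such regions, this choice favours higher calls. The region was higher in microglia for 57.3% of genes, or 30.1% under the relative log expression scaling and 39.1% without the deep members. These shares are the background for the counts that follow, which used the same choice. The region was higher for all 10 rule markers under both scalings. C1qb was at 89.0, 81.8, 94.1 and 100.2 ATAC CPM in MF1, MF2, HF1 and HF2 against 1.35 ± 0.275 in other nuclei (chr4:136885818-136886782, log2 6.82, SE 0.133). Csf1r was at 60.1, 47.7, 55.8 and 49.9 against 4.32 ± 0.448 (chr18:61105391-61106312, log2 4.37, SE 0.140), and Inpp5d at 49.0, 40.2, 36.4 and 28.7 against 0.928 ± 0.174 (chr1:87619853-87620685, log2 6.10, SE 0.180). The microglia of all 4 libraries were above all other nuclei at each of these start sites.

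Start sites of markers outside the rule were open in the same way. All 9 that had a tested region were higher under both scalings. Cx3cr1, the receptor for the neuronal chemokine fractalkine, was at 56.1, 59.9, 69.6 and 54.3 ATAC CPM against 1.06 ± 0.102 (chr9:120067961-120068836, log2 6.56, SE 0.153). P2ry12 was at 30.9, 24.9, 28.9 and 23.9 against 1.06 ± 0.201 (chr3:59219754-59220625, log2 5.43, SE 0.221). The start site of Tgfbr1 was open in other nuclei too, at 126 to 141 ATAC CPM against 39.4 ± 4.06 (log2 2.53, SE 0.0942).

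**Figure D4:**
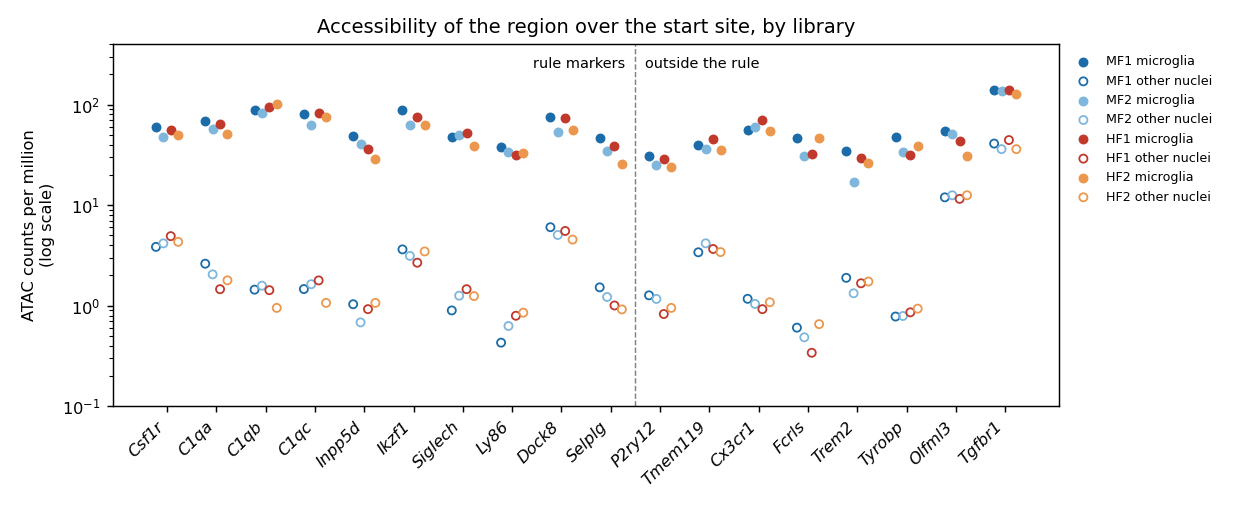
ATAC CPM (log axis) of the region over the start site of each gene, with filled points for microglia and open points for other nuclei of the same library; genes left of the dashed line are in the rule. In every gene shown the 4 filled points are above the 4 open ones. The smallest log2 difference (edgeR) is at Tgfbr1 (2.53, with 126 to 141 against a mean of 39.4).

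Gene groups differed in their start sites. Regions were higher for 25 of 26 transcription factors (Rreb1 was the exception, log2 0.87), all 16 complement and innate receptor genes, 24 of 25 genes of phagocytosis and the lysosome and 13 of 13 of antigen presentation, against the background of 57.3%. The Runx1 region (chr16:92825741-92826611) was at 56.4, 35.0, 49.8 and 43.1 ATAC CPM against 0.686 ± 0.146 (log2 6.79, SE 0.174). No excitatory neuron gene of 13 was higher and 11 were lower, against 11.2% lower among all genes with a tested region. Regions of the activated microglia list were higher in 5 of 12, and of folate and one-carbon genes in 24 of 34 (12 under the other scaling and 15 without the deep members). Regions were also higher for lists with few genes at 50 CPM in RNA or none 4-fold higher. They were higher in 24 of 25 cell cycle genes (13 under the other scaling) and 11 of 12 DNA methylation genes (5). RNA of these lists summed to 236 and 887 CPM in microglia against 212 and 601 CPM in other nuclei (means over libraries). For them, start sites and RNA did not always go together. Regions were also higher in 14 of 15 interferon genes (13), but the summed RNA of that list was higher too, at 358 against 46.4 CPM. Of genes with RNA at least 16-fold higher, 179 of 181 had a higher start-site region (98.9%, 97.8% under the other scaling). The share was 82.3% for genes whose RNA was within 2-fold (36.4% under the other scaling, 53.5% without the deep members) and 8.99% for those at least 2-fold lower (2.90% and 4.35%). All 17 of the 25 leading RNA genes that had a tested region were higher.

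Chromatin was also read for nuclei just outside the rule. The 66 nuclei with only 2 markers held 9.51 ATAC CPM over the start sites of the rule markers, against 573 in microglia and 21.7 in all other nuclei. The last value includes the 252 nuclei with 3 or more markers that the rule turned away. The members with exactly 3 markers were not read apart, so these values do not show where in chromatin the edge lies. The 29 nuclei that the border macrophage limit turned away held 432 over the start sites of the rule markers. Over those of markers outside the rule they held 213.9 against 484 in microglia, and over those of the border macrophage list 145 against 52.5. All other nuclei held 72.6 and 8.85 over the same 2 lists. Of 4 border macrophage genes with a tested region, 3 were higher in microglia, against 57.3% of all genes. The 5 lower regions with the smallest adjusted p were all start sites: those of Eml2 (chr7:19175671-19176661, 13, 23, 19 and 25 counts in microglia, 7.98 ± 2.68 ATAC CPM against 49.0 ± 4.75, adjusted p = 1.45e-25, edgeR), Phyhipl, 9530059O14Rik, Gnao1 (a G protein subunit of neurons) and Gm15743 within Bdh1 (log2 -1.37 to -2.50).

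For the diet, gene sums of microglia gave no call. Of 8394 genes tested in edgeR, none had an adjusted p under 0.05 with at least 1.2-fold (0%), 175 had an unadjusted p under 0.05 (124 of them higher in HF), and DESeq2 called none with 43 unadjusted. The smallest adjusted p was 0.9999. The count was 18 without the low-count filter and 52 without MF2, and it was 6, 1 and 2 without MF1, HF1 and HF2. The median log2 difference of HF over MF was 0.01 and 51.2% of genes were higher in HF. The scaling sets these values near the centre, so they do not bear on a shift of all genes. The 10 genes with the smallest p were Rgs20, Pcdh11x, Pdzrn4, Ccdc148, Lin7a, Trim8, 4930503L19Rik, Jakmip1, Fam13c and Hbb-bt. Rgs20, a brake on G protein signalling, was at 14.2 and 21.9 CPM in MF1 and MF2 and at 85.3 and 64.9 CPM in HF1 and HF2 (log2 2.15, SE 0.404, unadjusted p = 0.000642), with 62.3 to 127 CPM in other nuclei. Trim8, a ubiquitin ligase, was at 85.3 and 65.7 CPM in MF and 29.8 and 31.5 CPM in HF (log2 -1.27, SE 0.342, unadjusted p = 0.00569), with 10.5 to 19.2 CPM in other nuclei. The 2 diets did not overlap for either gene, but at an adjusted p of 0.9999 in edgeR neither difference passed, and 6 of the 10 genes had too few UMIs to be tested without the deep members.

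The marker lists of microglia had small negative differences, and none of their genes was called. All 10 rule markers, whose UMIs also set which nuclei were members, had a negative log2 difference (median -0.31, or -0.19 without the deep members), from -0.43 for Csf1r (SE 0.384) to -0.09 for Ikzf1 (SE 0.329). Their sums were 16499, 9763, 12112 and 8400 CPM in MF1, MF2, HF1 and HF2, so MF1 was highest and HF1 lay above MF2. Of the 14 markers outside the rule, 12 were negative, with a median of -0.24 (-0.10 without the deep members), and Tmem119 was lowest (log2 -0.70, SE 0.383, unadjusted p = 0.103, edgeR). The 14 summed to 15636, 9777, 12174 and 8894 CPM in the same order of libraries, so the diets overlapped here too. The activated microglia list did not share the negative direction, with 4 genes positive and 4 negative (median 0.01, or 0.21 without the deep members) and sums of 1825, 1338, 2299 and 1317 CPM in MF1, MF2, HF1 and HF2. Neuronal UMIs moved the opposite way to the markers: 13 of 14 excitatory neuron genes were positive (median 0.26) and so were all 6 astrocyte genes tested (median 0.70). Without the deep members these medians were 0.35 and 1.16. Astrocyte sums were 648, 1639, 1948 and 1573 CPM in MF1, MF2, HF1 and HF2, so MF2 lay above HF2. The excitatory neuron sums given above also overlapped between diets. Without the deep members the diets did not overlap in either list, with astrocyte sums of 381, 1206, 2109 and 1322 CPM. The part of neuronal and astrocyte UMIs in the marker differences was not tested. Both HF libraries were below both MF libraries for 14.5% of all genes and above for 11.3%. These shares are for single genes over all members. None was counted for list sums or without the deep members.

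Ribosomal protein genes had the same order of libraries in microglia and in other nuclei. Of 79 ribosomal protein genes, 78 had a negative difference (median log2 -0.38, none called), but the sums were 37227, 20969, 28542 and 15456 CPM in MF1, MF2, HF1 and HF2, so the second library of each diet was lowest, and other nuclei followed with 11195, 7195, 10107 and 5389 CPM. The 4 haemoglobin genes tested were all negative (median -1.64, 4 of 4 at an unadjusted p under 0.05, none called). The erythroid list summed to 2611, 687, 496 and 505 CPM in MF1, MF2, HF1 and HF2, so both MF libraries were above both HF libraries (exact two-sided permutation test, p = 0.333, the smallest p possible). In other nuclei the sums were 1867, 315, 564 and 260 CPM, where HF1 lay above MF2. MF1 was far above the rest in both.

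Immune response lists were highest in MF1. All 6 interferon genes tested had a negative difference (median log2 -0.68, or -0.50 without the deep members), with list sums of 657, 257, 258 and 260 CPM in MF1, MF2, HF1 and HF2, so MF2 was level with both HF libraries. Without the deep members the sums were 794, 288, 346 and 401 CPM, with MF2 lowest. All 7 antigen presentation genes were negative (median -0.56, or -0.39 without the deep members, 1 at an unadjusted p under 0.05), with sums of 1556, 758, 1138 and 596 CPM. H2-K1, a class I antigen presenting molecule, had the smallest p of these (log2 -1.05, SE 0.363, unadjusted p = 0.0195, edgeR). For both sums HF1 lay above MF2, so the diets overlapped.

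The genes that handle folate showed no direction. Of 13 folate and one-carbon genes tested in microglia, 7 had a positive and 6 a negative difference, with a median log2 of 0.01 and none at an unadjusted p under 0.05. Mtr differed by -0.11 (SE 0.296) and Mthfs by -0.36 (SE 0.292). Of 9 DNA methylation genes, 7 were negative and 2 positive (median -0.17), and Tdg, a glycosylase that removes oxidised methylcytosine, was lowest at 27.0, 52.0, 17.9 and 17.7 CPM (log2 -1.04, SE 0.516, unadjusted p = 0.0786). Fkbp5, a chaperone induced by glucocorticoids, was at 401, 482, 125 and 608 CPM in MF1, MF2, HF1 and HF2, so that the 2 HF libraries enclosed the MF ones (log2 -0.20, SE 0.638). After thinning, it was detected in 35.6%, 44.0%, 13.5% and 55.8% of microglia in that order, against 4.92%, 10.4%, 4.67% and 7.69% of other nuclei.

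**Figure D5:**
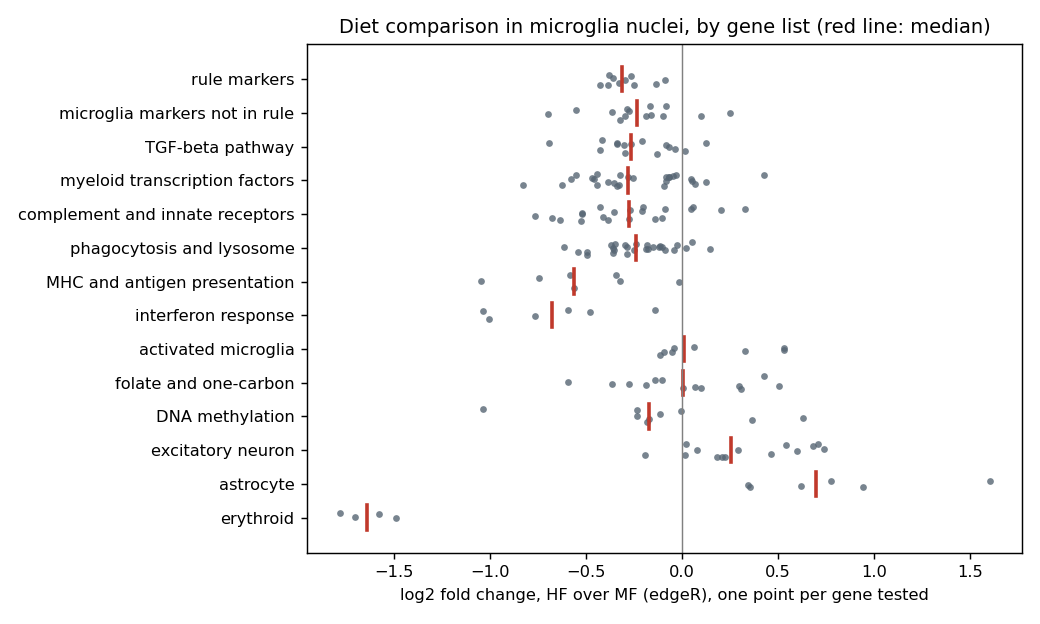
Each point is a gene tested in microglia, placed by its log2 difference of HF over MF (edgeR), with 1 row per list and a red bar at the median. Medians of the microglia marker, antigen presentation and interferon lists lie left of 0 (-0.31 for the rule markers and -0.68 for interferon), those of the excitatory neuron and astrocyte lists right of it (0.26 and 0.70), and no gene was called.

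Chromatin gave 1 diet call in microglia. Of 33890 regions tested, 1 had an adjusted p under 0.05 (0.00295%), 1118 had an unadjusted p under 0.05, and DESeq2 called none with 502 unadjusted. The region, chr1:92741933-92743482 (mm10), lay in no gene, 17772 bp from the start site of Gm29482. Microglia had 55 and 30 ATAC counts there in MF1 and MF2 and 3 and 2 in HF1 and HF2, which is 18.5 and 13.1 against 1.19 and 0.798 ATAC CPM (log2 -3.92, SE 0.596, adjusted p = 0.0415, edgeR). The diets did not overlap. Other nuclei had 27, 131, 118 and 105 counts there, 0.528 to 2.36 ATAC CPM, with no such order. The peak that gave the counts was 1358 bp wide in MF2 and 760 to 797 bp in the other libraries. The merged region was 1550 bp long and cuts were counted only inside each library's own peak. The 4 counts may therefore cover different bases, and the part of peak width and position in this call was not tested. The call was lost with DESeq2, without MF1, without MF2, with regions found in any library and among nuclei free of neuronal and glial UMIs (log2 -3.63 to -4.14), and kept without either HF library. The count of called regions ran from 0 without MF2 to 20 without HF1.

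The next regions did not pass. In chr1:64600485-64601730, in an untranslated part of Creb1 (a transcription factor), microglia had 51, 30, 0 and 4 counts in MF1, MF2, HF1 and HF2, with 113, 174, 52 and 122 in other nuclei. At the start site of Gm13431 (chr2:36216335-36217399) they had 258, 169, 105 and 91 counts. In an intron of Mrtfa (chr15:81073666-81075056), an actin-linked coactivator, they had 7, 5, 31 and 38 counts. Between genes on chromosome 12, 8455 bp from Gm5441 (chr12:117345023-117345931), they had 4, 2, 25 and 27 counts. An exon of Cd14 (chr18:36725440-36726795), the co-receptor for bacterial lipopolysaccharide, had 23, 32, 73 and 78 counts, while Cd14 RNA was at 121, 87.6, 97.2 and 31.5 CPM, with no matching order. The called peaks were wider in the diet with more counts at Mrtfa (764 and 751 bp in MF, 1269 and 1115 bp in HF), Gm13431 (776 and 808 bp, 576 and 715 bp), Creb1 (769 and 1132 bp, 485 and 652 bp) and Cd14 (466 and 1003 bp, 1162 and 1213 bp), while on chromosome 12 they were 855 to 880 bp in all libraries. The part of peak width and position in these counts was not tested. The diets did not overlap in these 5 regions, which were chosen by their p. Over all 33890 regions, both HF libraries were above both MF libraries in 14.6% and below in 15.8%. The 10 strongest microglial regions above differed little by diet (log2 -0.28 to 0.26, adjusted p = 0.9999, edgeR), and of the 20711 regions higher in microglia that were tested for the diet, 47.5% were higher in HF, against 50.2% of all.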

How the data were processed

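Nuclei from the hippocampus of P21 male pups were profiled with the 10x Genomics multiome assay in 4 libraries, 2 for each maternal diet. Per the labels and the study's methods, the authors processed each library with Cell Ranger ARC 2.0.1 on mm10, and deposited raw counts of UMIs per gene and nucleus and of ATAC cuts per peak and nucleus, with peaks called in each library separately. The replicates of a diet were deposited as separate libraries, and the study tested expression between diets over nuclei.

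The nucleus limits are those given in the report. The study's limits on nucleosome signal and start-site enrichment were not applied here, because they need fragment data that were not used here. The members and gene lists were chosen with earlier results of these data known. Counts were summed per library over microglia or the other kept nuclei, so the library was the replicate. Sums were tested with edgeR 4.0.16 in R 4.3.3 (quasi-likelihood, trimmed mean of M values scaling, low counts filtered, Benjamini-Hochberg adjustment) on groups taken from the labels, with a 1.2-fold minimum for genes and 2-fold for regions between cell classes. Regions were overlapping peaks merged across libraries, kept when every library had a peak there. A region's count sums its peaks, so it can move with the width and position of the peaks called in each library. DESeq2 1.42.0, with its own scaling, was the alternative test. The tests were checked on simulated counts with known changes, where most 2-fold changes between diets were missed. Shares and depth were compared by exact permutation. Same-numbered libraries of the 2 diets deviated with r = 0.333 over 8394 genes, but with 2 pairs and no label saying what a number marks they were not treated as pairs.

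Named genes were the 25 of highest RNA ratio at 50 CPM or more, up to 6 of highest mean CPM per list, and the 10 diet genes of smallest p. Spi1, Irf8, Sall1, Tgfb1, Nrros, Smad2, Smad3, Smad4, Tdg and Cd14 were added after their values were seen, as were the region tie-break by fold among adjusted p-values too small to tell apart, and the skipping of windows in untranslated regions. Windows on chromosome 18 were skipped by rule. Some list members are counted with their lists but are not reported here by name, and 1 marker was left out of the plots of single genes. Positions were annotated with GENCODE M21 basic. Alternatives were another scaling (relative log expression), DESeq2, no low-count filter, stricter membership (4 markers, or no neuronal, oligodendrocyte or astrocyte UMI), a replicate block, other region sets, a 4-fold minimum and leaving out each library. Intervals and counts of 0 cover counting error only.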

Additional observations from a re-analysis of the deposited data

Results flagged for a closer look

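The diet difference of microglia was set against that of the other nuclei of the same libraries with an interaction term (edgeR, 17324 genes, adjusted p under 0.05). It was called for 23 genes (0.133%, 727 at an unadjusted p under 0.05). In 19 of these the microglial level was below that of other nuclei, and in 4 one diet's microglia had no UMI. A positive value means that HF over MF was greater in microglia.

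Irak2, a kinase of interleukin 1 and Toll-like receptor signalling, was the called gene with the clearest microglial level. It stood at 179 and 175 CPM in microglia of MF1 and MF2 and at 115 and 116 CPM in HF1 and HF2, against 11.7, 13.3, 17.4 and 19.0 CPM in other nuclei (interaction log2 -1.19, SE 0.282, adjusted p = 0.0311, edgeR). The diets did not overlap in either class of nuclei and moved in opposite ways, but the gene was picked by its interaction call. Both HF libraries were below both MF libraries in microglia for 14.5% of genes tested for the diet. No such share was counted in other nuclei. In the diet test of microglia alone no gene was called. Without members over 5000 UMIs the interaction was -1.13 with an adjusted p of 0.0721 in edgeR.

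Ttr, the thyroid hormone carrier of the choroid plexus, had an interaction of 3.04. Its microglial UMIs were 9, 0, 1161 and 0 in MF1, MF2, HF1 and HF2, and 590 and 493 of those in HF1 came from 2 nuclei of 6769 and 9044 UMIs. The same 2 nuclei held 139 and 121 of the 275 UMIs of Htr2c in HF1 (interaction 1.38).

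Pcdh11x (1.51) and Vip (4.57) were the 2 genes called again without members over 5000 UMIs. Pcdh11x, a protocadherin, had 34, 17, 54 and 97 microglial UMIs, and Vip, a peptide of interneurons, had 0, 1, 3 and 13. The rest included Cntn4 at 1.92 (40, 65, 112 and 387 UMIs), Cntn6 at 1.84 (-0.57 without members over 5000 UMIs), Cntnap5c at 1.72 and Slit2 at 1.73. Excitatory neuron UMIs of microglia were also highest in HF2, and their part in these calls was not tested. The interaction was 1.61 for Htr4, 1.96 for Fras1, 1.84 for Cpne7, 2.05 for Pkp2, 2.17 for Gm2115, 2.58 for Itga4, 2.73 for 4930503L19Rik and 4.09 for Gm16083. It was -2.80 for Tll1 (46, 4, 0 and 6 UMIs) and -2.14 for Creb5 (9, 30, 7 and 5 UMIs). Where one diet had no microglial UMI, the fitted value depends on the prior count and is no bound: 10.12 for Slc26a4, 10.29 for Gm14372, 10.31 for Atp13a5 and -10.41 for Tcta (14, 5, 0 and 0 UMIs).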

How the results depend on the processing

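Each alternative changed 1 choice, except that DESeq2 changed the scaling along with the test. The alternative without members over 5000 UMIs was chosen after seeing the data. Microglia held 365444 to 703637 UMIs a library in 2 libraries a diet, so a diet difference without a call is not shown to be absent. Over the libraries left out in turn, the diet difference in the microglial share ran from -3.38 to 0.156 percentage points (the positive value without MF1), diet genes from 1 to 52 (52 without MF2) and diet regions from 0 to 20 (20 without HF1). Higher regions ran from 19744 to 20591, lower regions from 15040 to 18924 and interaction calls from 5 to 156 (156 without MF2). With 1 library in an arm, that library is assumed to vary like the others.

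With the replicate number as a block, diet genes came to 49, diet regions to 5 and interaction calls to 10. Without the low-count filter, diet genes came to 18 and diet regions to 2. Diet regions came to 2 with at least 4 markers and 2 without members over 5000 UMIs. They came to 0 with DESeq2 (502 at an unadjusted p under 0.05), 0 in nuclei free of neuronal and glial UMIs, and 0 with regions found in any library. Lower regions came to 54956 with the relative log expression scaling, 79248 with DESeq2, 78290 in nuclei free of neuronal and glial UMIs, 82562 without members over 5000 UMIs and 60395 with no library term. A 4-fold minimum left 9182 higher and 20385 lower regions. Without members over 5000 UMIs interaction calls came to 15, of which 2 were among the 23 and 13 were called only there, and the interaction reversed for Cntn6 (-0.57) and Htr4 (-0.23). It reversed for Htr2c without MF1 (-0.12) and without HF1 (-0.27), and for Ttr without HF1 (-8.39). Without the 2 control libraries in turn, these 2 genes also reached 7.15 (Ttr without MF1) and 6.03 (Htr2c without MF2). Apart from what the omitted libraries, nuclei or regions remove by construction, the cause was not tested. The 15 named regions of microglia against other nuclei kept their call in all 195 fits. Of 138 fits of single interaction genes, 45 kept the call and 88 lost it in the same direction.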
